A study of Mus musculus with 2 samples.

Results

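Interferon-high neutrophils are described here as mature neutrophils, within the CD45+ cells of mouse liver metastases, that carried RNA of at least 2 of 5 interferon-inducible genes. Members were chosen cell by cell on UMIs (unique molecular identifiers, each of which stands for 1 captured RNA molecule). A member held at least 30 UMIs of S100a8 and S100a9 per 10000, at least 1 UMI of 2 or more of G0s2, Hdc, Csf3r, Clec4d and Cxcr2, and at most 1 UMI over the granule genes Ngp, Camp and Ltf. It held none of Cd3e, Cd79a or Adgre1, and at least 1 UMI of 2 or more of Cxcl10, Gbp2, Gbp4, Irgm1 and Isg15. The rule was met by 848 of 19999 filtered cells, of which 366 came from the control library and 482 from the knockdown library. The remaining 1257 mature neutrophils had 0 or 1 of the 5 interferon genes and are called other mature neutrophils. Because the rule itself uses measured RNA, shares of members and differences between members and other mature neutrophils are given as a description.

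The metastases arose from MC38-LM3b, a liver-metastatic derivative of the C57BL/6 colorectal cancer line MC38, injected into the spleen of 6- to 8-week-old C57BL/6 mice and collected 2 weeks later. The tumor cells carried either shScramble, a hairpin RNA with no intended target (Ctrl), or shSLAMF3, a hairpin against the receptor SLAMF3, which is encoded by Ly9 (KD). Each group was 1 library of positively selected CD45+ cells, pooled from 3 mice, and host cells such as neutrophils carried no hairpin. With no replicate of either group no test was possible. The intervals given cover the sampling of UMIs or cells at 95% and nothing else, and differences between libraries cannot be told apart from differences between pools of mice. Ly9 had 2 UMIs in Ctrl members and 7 in KD members, and as these cells carried no hairpin the knockdown could not be checked in them. Members were shallow, with a median of 2239 UMIs in Ctrl and 2856 in KD, against 5412 and 4989 over all filtered cells. No barcode was shared between Ctrl and KD members, and 1 member barcode recurred anywhere in the other library.

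Interferons signal through JAK kinases and STAT transcription factors. Type I interferons act mainly through a complex that contains IRF9 and binds the interferon-stimulated response element (ISRE), whereas interferon-gamma acts mainly through factors that bind the gamma-activated site (GAS). The genes they induce include antiviral effectors such as the Ifit, Oas and Mx families, the guanylate-binding proteins and immunity-related GTPases that attack pathogen vacuoles, antigen-processing genes and the CXCR3 ligands Cxcl9, Cxcl10 and Cxcl11. Neutrophils with such a program have been described in blood, infection and tumors. Of the rule's genes, Cxcl10 encodes a chemokine that attracts activated T cells, Gbp2 and Gbp4 encode guanylate-binding proteins, Irgm1 encodes a regulatory immunity-related GTPase and Isg15 encodes a ubiquitin-like protein.

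Promoters were read because the rule used the 5 genes together as interferon-inducible genes. In the RefSeq sequences of GRCm38.p6, 4 of the 5 rule genes had an entry, and the 250 bases before each start were searched on both strands for the ISRE core (GAAA, any 2 bases, GAAA) and the GAS core (TTC, any 3 bases, GAA). The sequences lie at chr5:92348890-92349139 for Cxcl10 (minus strand), chr3:142620413-142620662 for Gbp2 (plus strand), chr11:48871421-48871670 for Irgm1 (minus strand), chr4:156200819-156201068 for Isg15 (minus strand) and chr3:142496684-142496933 for Gbp5 (plus strand). Gbp5 is not a gene of the rule and is shown because it held both motifs and ranked among the genes that set members apart. Each is printed 5′ to 3′ on the gene's strand and ends just before the start, with the matches in capitals.
Cxcl10: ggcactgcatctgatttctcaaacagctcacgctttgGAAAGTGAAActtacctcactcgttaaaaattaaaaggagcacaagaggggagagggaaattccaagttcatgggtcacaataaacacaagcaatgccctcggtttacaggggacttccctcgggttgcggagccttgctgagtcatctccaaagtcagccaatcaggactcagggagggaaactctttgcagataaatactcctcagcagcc
Gbp2: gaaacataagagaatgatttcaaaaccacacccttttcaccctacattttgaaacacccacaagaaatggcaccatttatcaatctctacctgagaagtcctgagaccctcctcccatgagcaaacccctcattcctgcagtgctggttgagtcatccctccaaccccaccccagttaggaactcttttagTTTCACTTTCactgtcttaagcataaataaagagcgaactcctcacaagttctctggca
Irgm1: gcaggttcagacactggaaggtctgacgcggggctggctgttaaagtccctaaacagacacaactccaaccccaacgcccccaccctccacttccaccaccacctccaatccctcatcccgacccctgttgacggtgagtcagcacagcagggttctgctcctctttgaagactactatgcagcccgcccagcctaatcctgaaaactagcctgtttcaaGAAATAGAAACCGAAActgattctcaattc
Isg15: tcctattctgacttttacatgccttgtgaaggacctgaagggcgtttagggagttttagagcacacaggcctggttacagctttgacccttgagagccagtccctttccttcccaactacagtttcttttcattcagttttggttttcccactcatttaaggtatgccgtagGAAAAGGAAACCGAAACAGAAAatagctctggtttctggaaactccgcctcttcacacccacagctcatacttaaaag
Gbp5: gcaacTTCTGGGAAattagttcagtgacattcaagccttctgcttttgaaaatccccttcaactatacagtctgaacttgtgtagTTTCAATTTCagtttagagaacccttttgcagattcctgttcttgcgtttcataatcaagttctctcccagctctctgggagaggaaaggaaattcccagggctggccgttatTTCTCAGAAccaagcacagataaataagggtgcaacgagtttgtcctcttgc

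All 4 rule promoters held the ISRE core and none the GAS core, with 1 match in Cxcl10 and Gbp2, 2 overlapping matches in Irgm1 and 3 overlapping matches in Isg15. Over all 32851 mouse promoters of this length, 2.98% held the ISRE core and 7.02% the GAS core. The list of type I interferon genes, which excludes the rule's genes, had a promoter for 24 genes, of which 11 held the ISRE core and 4 the GAS core. For the interferon-gamma list, 9 of 19 genes held the ISRE core and 11 the GAS core. Counted per gene in the same way, the shares among 27025 genes were 3.46% and 8.13%. Besides Gbp5, the promoters of Ifit2, Ifit1, Ifit3 and Ifi47, which ranked above it among the genes that set members apart, were searched. Ifit1 and Ifit3 held the ISRE core, Ifit2 only the GAS core, and Ifi47 neither. A match describes letters in a window and is not evidence of binding.

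Members made up 74.1% of Ctrl mature neutrophils (366 of 494, 70.0% to 77.9%) and 29.9% of KD mature neutrophils (482 of 1611, 27.7% to 32.2%). The difference was -44.2 percentage points (-48.6 to -39.5). Counted against all filtered cells the order was the other way, with 3.73% for Ctrl (interval 3.36% to 4.12%) and 4.73% for KD (interval 4.33% to 5.16%). Mature neutrophils as a whole were 5.03% of Ctrl cells and 15.8% of KD cells. The members' share of all cells was thus 1.00 points higher in KD (0.439 to 1.57). That comparison depended on the rule: with at least 3 of the 5 genes the shares of all cells were 2.43% and 1.19%, and with every cell thinned to 1000 UMIs before the rule they were 3.10% and 2.31%. The share of mature neutrophils kept its direction under each of the 12 alternatives tried for it.

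Members differed in how many of the 5 genes they carried. Among Ctrl members 35.0% had exactly 2 genes, 32.8% had 3, 25.1% had 4 and 26 of the 366 cells had all 5. Among KD members 74.9% had exactly 2 genes, 17.0% had 3, 7.26% had 4 and 0.830% had all 5. The commonest combination in both libraries was Gbp2 with Isg15 alone, which accounted for 290 KD members (60.2%) and 75 Ctrl members (20.5%). The KD members therefore sat mostly at the edge of the rule, as the plot of mature neutrophils by number of genes shows.

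**Figure D1:**
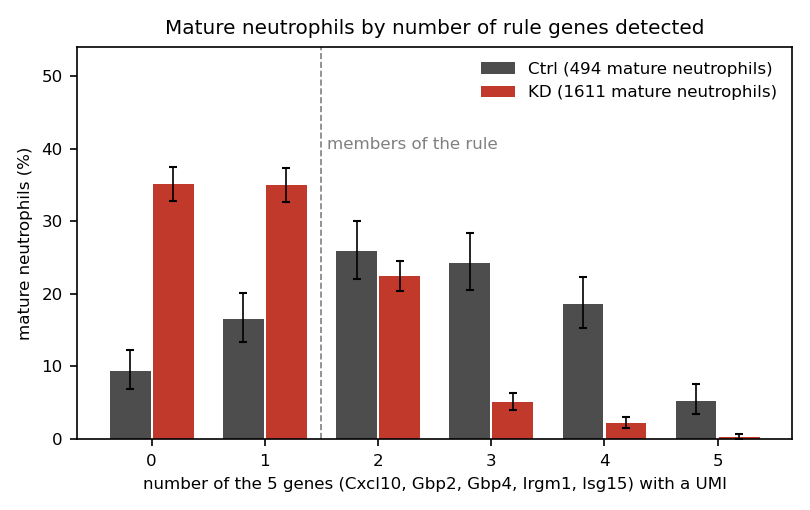
Bars give the percent of mature neutrophils (494 Ctrl, 1611 KD) by how many of the 5 rule genes had at least 1 UMI, with exact 95% counting intervals. To the right of the dashed line are the members: 26 Ctrl and 4 KD cells had all 5 genes, and 46 Ctrl and 565 KD cells had none.

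The rule genes did not contribute equally. Cxcl10 was found in 170 of 366 Ctrl members (46.4%, interval 41.2% to 51.7%) and 84 of 482 KD members (17.4%, interval 14.1% to 21.1%). Gbp2 was found in 89.1% and 92.1% of members, and Isg15 in 91.3% and 89.8%, shares that the rule itself raises. Over all mature neutrophils Gbp2 was found in 71.3% of Ctrl and 44.3% of KD cells, and Isg15 in 75.9% and 41.2%. Irgm1 was found in 53.0% of Ctrl and 25.9% of KD members and Gbp4 in 24.6% and 8.71%. Cxcl10 RNA was concentrated in few cells: the 10 cells with most held 32.2% of its 1816 UMIs in Ctrl members and 66.5% of its 567 UMIs in KD members, and the highest cell of each library held 94. By contrast the 10 highest cells held 11.2% and 11.96% of the Gbp2 UMIs.

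The 9 neutrophil markers listed that the rule did not use, such as Retnlg, Mmp9, Il1r2 and Ly6g, were all detected in members of both libraries. Detection over summed cells does not separate cell types. All 7 monocyte markers, and every macrophage marker listed but Adgre1, were detected in members as well. The 9 neutrophil markers summed to 143 UMIs per 10000 in Ctrl members and 151 in KD members, against 163 and 168 in other mature neutrophils of the same library. Those cells met the same neutrophil clauses, so these sums do not test the label. Acod1, 1 of the 9, is also on the interferon-gamma list below, and made up more of the sum in Ctrl members than in KD members. The near-equal sums therefore do not show near-equal levels of the other markers. Further lists measured the interferon program without the rule's genes. The first held 31 type I interferon genes, such as the Ifit, Oas and Slfn families. The second held 28 interferon-gamma genes, such as guanylate-binding proteins, immunity-related GTPases, Irf1 and Cd274.

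The type I list summed to 77.6 UMIs per 10000 in Ctrl members (75.8 to 79.4) and 31.2 in other Ctrl mature neutrophils. In KD it summed to 43.8 in members (42.8 to 44.8) and 19.6 in other mature neutrophils. Members were thus above their own library's other cells in both. KD members nevertheless lay closer to the Ctrl cells that failed the rule than to the Ctrl members. Per cell, the median was 67.3 in Ctrl members (interquartile range 42.7 to 110), 34.7 in KD members (20.2 to 62.7) and 30.3 in other Ctrl mature neutrophils (14.6 to 43.8).

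The interferon-gamma list summed to 126 UMIs per 10000 in Ctrl members and 58.7 in KD members, with 76.6 and 36.9 in the other mature neutrophils. KD members were on this sum below the Ctrl cells outside the rule. That order rested on Acod1, the itaconate-producing enzyme, and Cd274, the gene of PD-L1, which were found in 99.2% and 89.1% of Ctrl members. Without those genes the sums were 43.4 in Ctrl members, 24.2 in KD members (23.5 to 24.96), 15.8 in other Ctrl cells (14.4 to 17.3) and 13.8 in other KD cells, so KD members stood above other Ctrl cells.

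Both lists were higher in cells with more of the 5 genes when cells with 4 and 5 genes were pooled. In Ctrl the type I sum was 24.3 UMIs per 10000 with 0 rule genes, 34.7 with 1, 50.9 with 2, 88.5 with 3 and 90.0 with 4 or 5. In KD the same steps were 16.3, 22.5, 38.5, 52.4 and 60.6. At every step the Ctrl value was the higher, with intervals that did not overlap. Taken apart, cells with 5 genes, 26 in Ctrl and 4 in KD, had lower sums than cells with 4. The type I sum was 81.1 with 5 genes and 93.9 with 4 in Ctrl, and 47.3 and 63.0 in KD. The interferon-gamma sum was 124 with 5 genes and 156 with 4 in Ctrl, and 76.0 and 93.4 in KD. Just outside the rule, cells with 1 gene had interferon-gamma sums of 86.0 in Ctrl and 38.7 in KD, and just inside, cells with 2 genes had 96.5 and 51.7. Without Acod1 and Cd274 the same cells had 17.0 and 14.6 with 1 gene, and 26.2 and 19.7 with 2 genes.

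**Figure D2:**
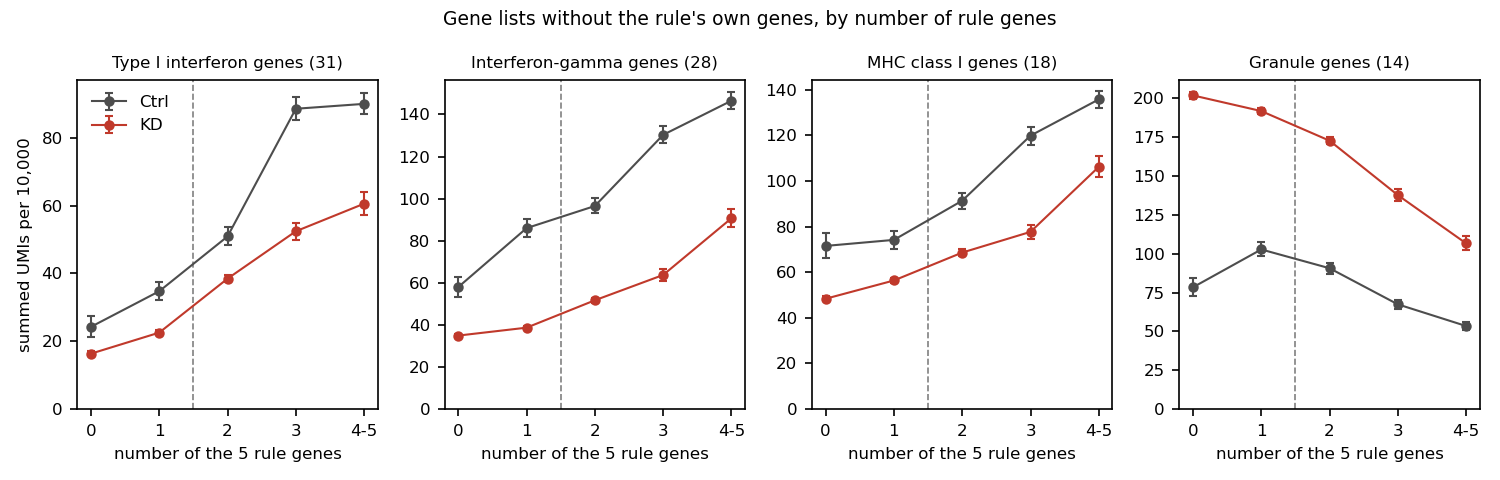
Points give summed UMIs per 10000 of 4 gene lists without the rule's genes, in Ctrl and KD mature neutrophils grouped by how many of the 5 rule genes they held, with exact Poisson 95% intervals. Cells with 4 and 5 rule genes are pooled. Type I interferon, interferon-gamma and MHC class I sums were higher with more rule genes and lower in KD at each step. Granule sums were lower from 1 rule gene upwards and higher in KD.

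MHC class I genes also graded with the number of rule genes, as did granule genes from 1 rule gene upwards. The class I list (18 genes for heavy chains, peptide transport and the immunoproteasome) summed to 71.5 with 0 rule genes and 136 with 4 or 5 in Ctrl, and to 48.4 and 106 in KD. Granule genes ran the other way, from 103 with 1 rule gene to 53.4 with 4 or 5 in Ctrl, and from 192 to 107 in KD. With 0 rule genes the granule sum was 78.4 in Ctrl, below that with 1, and 202 in KD. MHC class II sums went from 9.06 to 41.7 in Ctrl and from 9.81 to 38.7 in KD. Macrophage markers summed to 4.68 and 9.42 in the same Ctrl groups and to 5.30 and 13.7 in the KD groups, and monocyte markers to 8.85 and 13.8 in Ctrl and 5.35 and 15.98 in KD. T and NK cell markers summed to 1.04 and 0.866 in the Ctrl groups and to 0.827 and 19.9 in the KD groups. Cells with more rule genes were also deeper. The median was 2056.5 UMIs with 0 genes, 2317 with 4 and 2776.5 with 5 in Ctrl, and 2493, 3282 and 8166 in KD. The part of depth and of other cell types in the values of any list was not tested. With that limit, cells with most interferon genes had most antigen-presentation RNA and least granule RNA in both libraries.

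Members also varied by Cxcl10. In Ctrl, the 170 members with Cxcl10 had a type I sum of 85.3 UMIs per 10000 and the 196 without it 69.3, a log2 ratio of 0.30 (0.23 to 0.37). In KD the 84 with Cxcl10 had 55.7 and the 398 without it 40.8, a log2 ratio of 0.45 (0.37 to 0.52). Granule genes were lower in members with Cxcl10, at 62.8 against 76.2 in Ctrl and 120 against 167 in KD. Macrophage markers were higher in them, at 11.1 against 4.54 in Ctrl and 14.6 against 8.66 in KD. Macrophages also express Cxcl10, and the part of their RNA in these values was not tested.

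Compared gene by gene with other mature neutrophils of the same library, members were at least 2-fold higher in both libraries for 98 of 4691 genes (2.09%) and at least 2-fold lower in both for 0 (0%). This contrast is the one the rule used and is a description, and its Ctrl comparison group was only 128 cells. The type I list supplied 20 of its 26 measured genes to the 98, the interferon-gamma list 13 of 19, MHC class I 5 of 18 and MHC class II 3 of 6. None of the 8 granule, 17 survival, 18 hypoxia and glycolysis or 19 receptor genes measured was among them.

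The largest of these ratios belonged to Ifit2, an antiviral protein that binds RNA, at 172 CPM (UMIs per 1000000 of the summed cells) in Ctrl members and 6.96 in other Ctrl cells, and at 58.6 and 2.76 in KD. Members over others gave log2 ratios of 4.62 for Ctrl (2.75 to 7.68) and 4.41 for KD (3.42 to 5.58), on 2 and 9 UMIs in the other cells. Ifit1 stood at 2.87 and 2.91, Ifit3 at 2.66 and 3.41, Rsad2 (viperin, an antiviral enzyme) at 2.37 and 2.74, and Ifi47, an immunity-related GTPase, at 2.58 and 2.71. Gbp5 and Gbp3 reached 2.50 and 2.87 in Ctrl and 2.67 and 2.41 in KD. For each of these genes the intervals of both libraries overlapped, while the levels were lower in KD. Herc6, the ligase that attaches ISG15 to proteins in the mouse, stood at 2.34 and 2.18.

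Some members of that list share sequence or position. Or2v1, an olfactory receptor gene with log2 ratios of 2.10 and 2.50, is annotated on chromosome 11 over Ifi47 on the same strand in GRCm38 (GENCODE M21, 48978889 to 49135387, around 49076587 to 49096974), so that its UMIs cannot be separated with certainty from those of Ifi47. Counts of the paralogs Ifit1bl2, Ifit3b, Tgtp1, Tgtp2, Bcl2a1a and H2-Q6 are likewise uncertain. Among genes lower in members, Prok2, a secreted prokineticin of bone marrow and neutrophils, had log2 ratios of -1.48 in Ctrl (-2.26 to -0.68) and -0.92 in KD (-1.23 to -0.63). Dck, a nucleoside kinase, stood at -1.30 and -0.64, and Isy1, H1f2 and Fam133b were between -0.94 and -0.59.

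**Figure D3:**
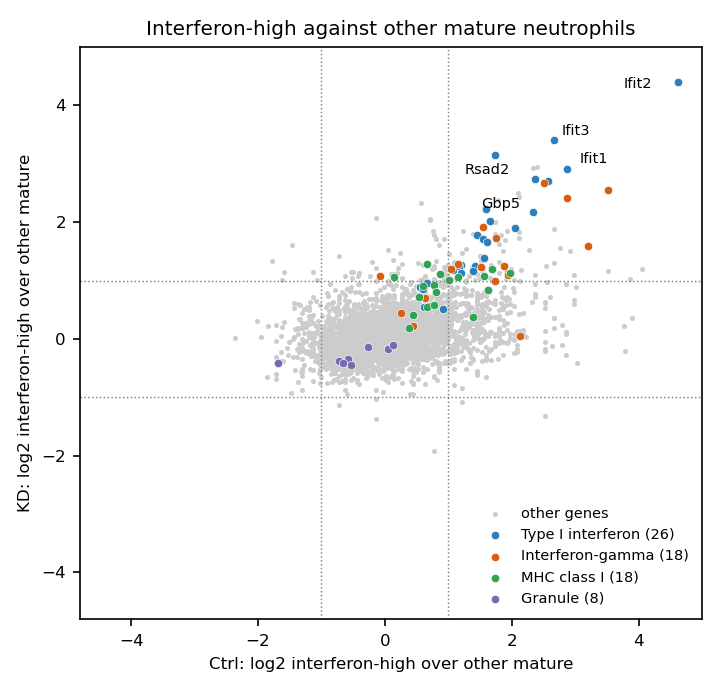
Each point is 1 gene, at its log2 ratio of interferon-high over other mature neutrophils in Ctrl (horizontal) and KD (vertical), for genes with UMIs in all 4 groups of cells. Dotted lines mark 2-fold. Interferon genes filled the upper right, with Ifit2 at 4.62 and 4.41, while all 8 granule genes shown lay below 0.2 on both axes.

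Next, members of KD were compared with members of Ctrl, which asks how neutrophils with an interferon program differed between control metastases and metastases of tumor cells with less SLAMF3. Of 7206 genes with at least 20 UMIs, 893 (12.4%) were at least 2-fold higher in KD and 340 (4.72%) at least 2-fold lower, and the median log2 ratio of all these genes was 0.21. Higher genes made up 72.4% of these calls. That split depended on scaling, since TMM factors gave 720 higher and 452 lower genes (61.4% higher) and medians of ratios gave 646 and 510 (55.9%). Those scalings lower every log2 ratio by 0.12 and 0.17, so values near 0 have no firm direction. The shares of 12.4% and 4.72% are the background for the list counts of KD over Ctrl members below.

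All 5 rule genes were at least 2-fold lower in KD members. Cxcl10 stood at 1914 CPM in Ctrl and 335 in KD, a log2 ratio of -2.51 (-2.65 to -2.38). Gbp4 stood at 169 and 32.5 CPM (log2 ratio -2.37), and Irgm1 at 346 and 105 (-1.72). Isg15 stood at 2106 and 895 CPM (-1.23, -1.33 to -1.14) and Gbp2 at 1997 and 950 (-1.07, -1.17 to -0.98). Gbp2 and Isg15, the 2 genes that most KD members were selected on, had the smallest ratios. Since the rule used these 5 genes, their ratios in members are a description. Over all mature neutrophils, without the interferon clause, the order was the same. The log2 ratios there were -1.905 for Gbp2, -2.09 for Isg15, -2.72 for Irgm1, -3.44 for Gbp4 and -3.59 for Cxcl10.

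The type I list had 26 genes past the UMI limit, of which 8 were at least 2-fold lower and 0 at least 2-fold higher in KD members, with a median log2 ratio of -0.85. After thinning to 1000 UMIs, which left 293 and 227 members, that median was -0.41. In members, monocyte markers, led by Ctss, summed to 11.1 UMIs per 10000 in Ctrl and 7.84 in KD, although the median log2 ratio of the 7 genes was 0.24, and their part in these values was not tested. Slfn5, a Schlafen protein that restrains transcription, stood at 469 CPM in Ctrl and 159 in KD (-1.56, -1.78 to -1.34). Rsad2 stood at 916 and 333 CPM (-1.46, -1.62 to -1.30), Ifi47 at 603 and 218 (-1.47) and Ifit2 at 172 and 58.6 (-1.55). The other genes past 2-fold were Herc6, Ifit3, Ifit3b and Xaf1, of which Xaf1 turned to a log2 ratio of 0.32 after thinning. At the other end Cmpk2, a mitochondrial nucleotide kinase encoded beside Rsad2, stood at -0.25 (-0.78 to 0.30), and Slfn4, Trim30a, Ddx60, Oas2, Oas3 and Oasl2 lay between -0.48 and -0.38. The intervals of 24 of the 26 genes lay below 0.

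The interferon-gamma list was lower by more. Of its 24 measured genes 16 were at least 2-fold lower and 0 higher, with a median of -1.19 and a range from -2.72 to 0.35. Tgtp1, an immunity-related GTPase, had 59 UMIs in Ctrl and 16 in KD (-2.72, -3.61 to -1.90), and Gbp9 had 89 and 30 (-2.40, -3.05 to -1.79). Irf1, a transcription factor induced by interferon-gamma, stood at 916 and 367 CPM (-1.32, -1.47 to -1.17). Socs1, a feedback inhibitor of JAK kinases, stood at 128 and 40.8 CPM (-1.64, -2.09 to -1.21). Guanylate-binding proteins 3, 5, 7 and 8 had ratios between -1.51 and -1.15. The intervals of the other 8 genes held 0. Among them were Iigp1 (0.28, -0.30 to 0.87), Irf8 (0.35, -0.13 to 0.86), Slfn2 (0.08) and Nos2 (-0.10), of which Irf8 and Nos2 are also macrophage genes.

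**Figure D4:**
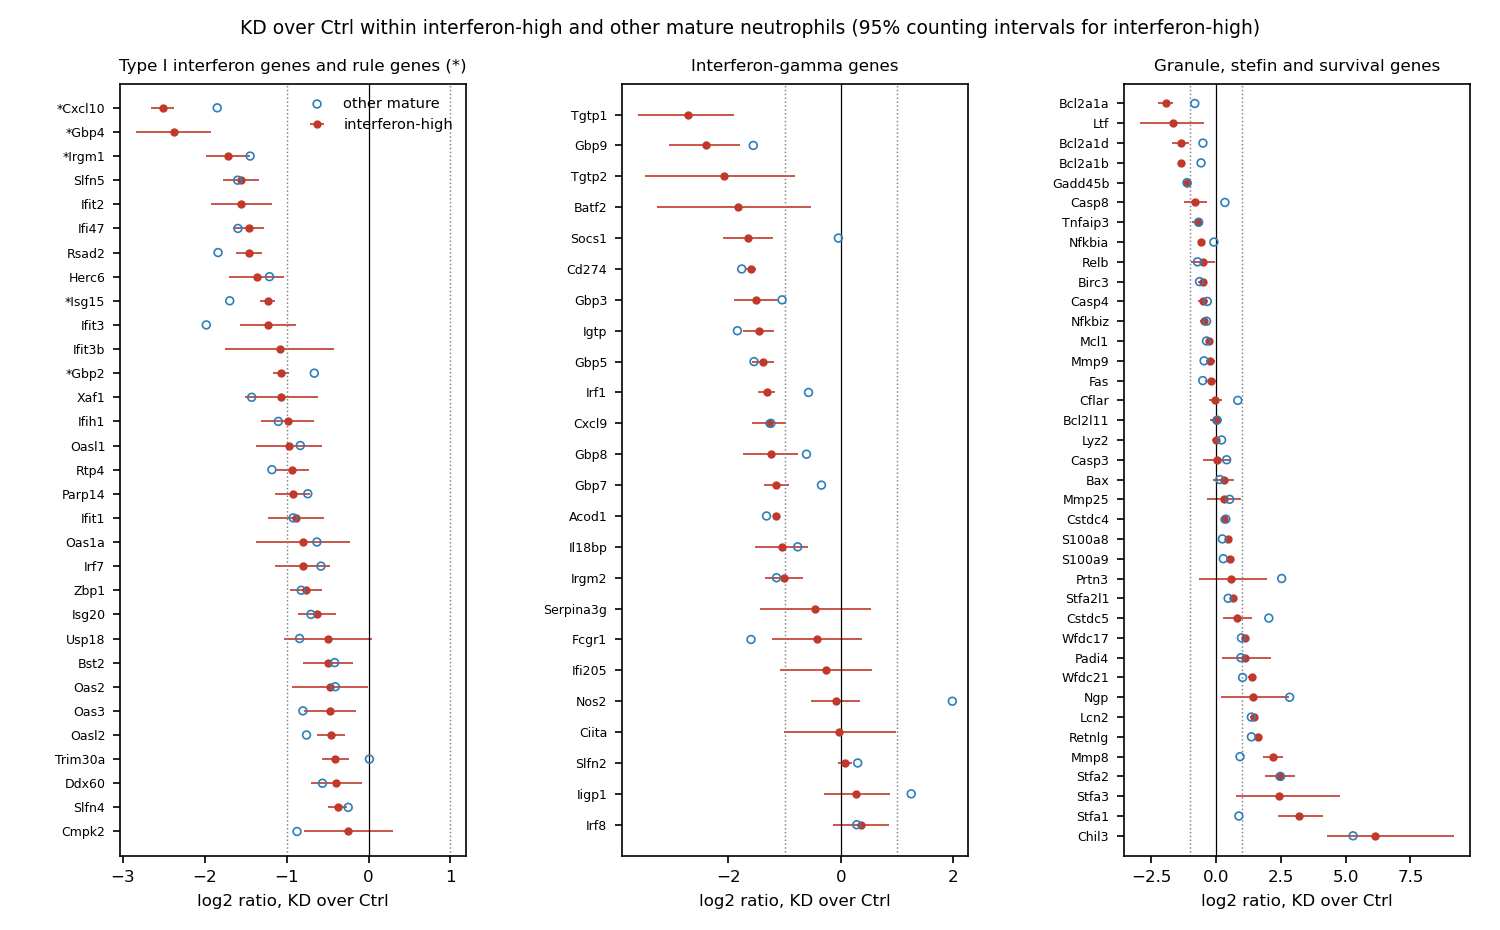
Filled points give the log2 ratio of KD over Ctrl in interferon-high neutrophils with exact 95% counting intervals, and open circles the same ratio in other mature neutrophils, for list genes with at least 20 UMIs. Asterisks mark the rule's genes and dotted lines 2-fold. Interferon genes lay left of 0 with few exceptions such as Irf8 (0.35), and granule and stefin genes lay mostly to the right, up to Chil3 at 6.14.

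The lower levels were not limited to members. In other mature neutrophils the type I list had a median of -0.83 over 24 genes and the interferon-gamma list -0.77 over 19. Rsad2 stood at -1.84 there, Ifi47 at -1.60, Cd274 at -1.76 and Igtp at -1.84, each at least as low as in members. Socs1 (-0.05), Irf1 (-0.58) and Gbp7 (-0.35) had ratios nearer to 0 in those cells than in members. These side-by-side ratios come from different cells of the same 2 libraries and share any difference between the libraries. A restriction added after the data were seen, to members with exactly 2 of the 5 genes, 128 in Ctrl and 361 in KD, had 758 genes higher and 265 lower of 5298 and gave medians of -0.53 for the type I list and -0.96 for the interferon-gamma list.

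Signalling genes differed less. Of 14 receptor, kinase and STAT genes none was 2-fold apart between KD and Ctrl members, and the median was -0.24. Both subunits of the interferon-gamma receptor were higher in KD members, Ifngr1 at 146 CPM in Ctrl and 213 in KD (0.54, 0.25 to 0.83) and Ifngr2 at 72.7 and 119 (0.72, 0.32 to 1.13). Ptpn2, the gene of a phosphatase that restrains JAK signalling, was lower, at 141 and 75.7 CPM (-0.90, -1.26 to -0.54). Intervals for Ifnar1, Ifnar2, Jak1, Jak2, Tyk2, Stat2, Stat3 and Irf9 all held 0.

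In the MHC class I list 3 of 18 genes were at least 2-fold lower and 0 higher in KD members, with a median of -0.64 and 16 intervals below 0. H2-Q7, a nonclassical heavy chain, stood at 393 CPM in Ctrl and 143 in KD (-1.46, -1.70 to -1.22), Nlrc5, the transactivator of class I genes, at 259 and 110 (-1.24), and the proteasome activator subunit Psme2 at 383 and 188 (-1.02). B2m, the light chain, stood at 3167 and 1828 CPM (-0.79, -0.87 to -0.72). MHC class II differed little: all 7 genes were within 2-fold, their intervals all held 0 and their median was -0.05. H2-Ab1 stood at 427 and 412 CPM and Cd74, the invariant chain, at 707 and 719. In other mature neutrophils the class II median was 0.91.

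Of 12 chemokine genes 2 were at least 2-fold higher and 4 at least 2-fold lower in KD members, beside 12.4% and 4.72% of all genes. The CXCR3 ligands Cxcl11 (67.4 CPM in Ctrl, 10.1 in KD, log2 ratio -2.75, -3.61 to -1.96) and Cxcl9 (223 and 92.3, -1.28) were lower alongside Cxcl10. Ccl4 and Ccl3, which attract monocytes and T cells, stood at 4690 and 1678 CPM (-1.48, -1.55 to -1.41) and 2071 and 846 CPM (-1.29). Cxcl2, a CXCR2 ligand and the most abundant chemokine, stood at 17824 and 11342 CPM (-0.65, -0.68 to -0.62). Ccl6 was higher, at 412 and 867 CPM (1.07, 0.91 to 1.24), as was Ccl9 on 15 and 67 UMIs (1.33, 0.50 to 2.24). In members with exactly 2 of the 5 genes the log2 ratio of Cxcl9 turned to 0.41. It was concentrated in few cells, since the 10 highest held 65.1% of its UMIs in Ctrl and 76.3% in KD.

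Among cytokines 4 of 18 genes were at least 2-fold lower in KD members and 0 higher, and the median was -0.61. Il1a stood at 269 CPM in Ctrl and 65.7 in KD (-2.03, -2.37 to -1.71). Nampt, an enzyme of NAD synthesis that is also secreted, stood at 1443 and 430 (-1.75, -1.88 to -1.62), and Il1rn, the interleukin-1 receptor antagonist, at 1119 and 374 (-1.58). Il10 was at 92.7 and 41.4 CPM (-1.16, -1.64 to -0.69). Il1b, the most abundant, stood at 10489 and 6130 CPM (-0.77, -0.81 to -0.74) and Tnf at 448 and 234 (-0.94). Osm, Tnfsf14 and Il27 had intervals that held 0.

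Of 13 checkpoint and suppressor genes 4 were at least 2-fold lower in KD members and 0 higher. Cd274, whose product PD-L1 inhibits T cells through PD-1, stood at 2380 CPM in Ctrl and 785 in KD (-1.60, -1.70 to -1.50) and was found in 89.1% of Ctrl members (85.4% to 92.1%) and 66.4% of KD members (62.0% to 70.6%). Pdcd1lg2, the gene of PD-L2, had 49 and 35 UMIs (-1.32, -1.99 to -0.66), Cd40 had 14 and 7, and Ptgs2, which makes prostaglandin precursors, stood at 1018 and 444 CPM (-1.20). Arg2 (0.05), Lgals9 (0.05) and Cd47 (0.03) were near 0, and Vsir, the gene of VISTA, was higher (0.44, 0.10 to 0.78).

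Receptors and sensors of neutrophils mostly stayed within 2-fold. Of 21 receptor genes 2 were lower, Ccrl2, a chemerin-binding receptor (2782 and 909 CPM, -1.61, -1.71 to -1.52), and Icam1, an adhesion molecule (386 and 162 CPM, -1.25). Of 17 sensing genes 2 were lower, Clec7a, the beta-glucan receptor Dectin-1 (1772 and 745 CPM, -1.25), and Fcgr4, an activating Fc receptor (486 and 227, -1.10). Il1r2, C5ar1, Fpr2 and Trem1 had intervals that held 0. Selplg, the P-selectin ligand, was higher by less than 2-fold (0.88, 0.62 to 1.13). Among NADPH oxidase and redox genes 1 of 8 passed 2-fold, the mitochondrial dismutase Sod2 (782 and 379 CPM, -1.04).

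Among the lists of neutrophil functions, granule and stefin genes had the highest medians. Of 15 granule genes 8 were at least 2-fold higher in KD members and 1 lower, with a median of 1.11. Chil3, a chitinase-like lectin, had 2 UMIs in 1 of 366 Ctrl members and 251 UMIs in 78 of 482 KD members (log2 ratio 6.14, 4.27 to 9.19). Mmp8, the neutrophil collagenase, stood at 67.4 CPM in Ctrl and 307 in KD (2.19, 1.81 to 2.58). Retnlg, a resistin-like protein, stood at 1760 and 5349 CPM (1.60, 1.53 to 1.68), Lcn2, an iron-sequestering lipocalin, at 645 and 1754 (1.44), and Wfdc21 and Wfdc17 at 1.36 and 1.11. The remaining genes past 2-fold rested on few UMIs: Padi4 and Ngp higher, and Ltf lower on 18 and 10 UMIs. Ngp and Ltf belong to the rule, which limits them to 1 UMI per cell. Immature neutrophils, gated on these granule genes, numbered 33 in Ctrl and 314 in KD. The part of their RNA in the members' granule values was not tested.

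Stefins, the cysteine protease inhibitors Stfa1, Stfa2 and Stfa3, were higher by 3.21 (2.40 to 4.14), 2.44 (1.87 to 3.05) and 2.44 on the log2 scale, the last on 3 and 29 UMIs, and all 6 measured stefin-family genes had intervals above 0. These genes are near-identical copies and their counts may be shared. In other mature neutrophils the granule median was 1.00 and the stefin median 1.45, so higher values there accompanied those in members.

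Survival genes were lower where they differed. Of 17 genes 4 were at least 2-fold lower in KD members and 0 higher: the antiapoptotic paralogs Bcl2a1a (339 and 87.5 CPM, -1.95, -2.25 to -1.67), Bcl2a1b (1050 and 413, -1.34) and Bcl2a1d (199 and 77.5, -1.36), and the stress gene Gadd45b (1861 and 856, -1.12). Mcl1, the chief survival factor of neutrophils, stood at 3347 and 2738 CPM (-0.29, -0.36 to -0.22). Of 18 genes reported in tumor neutrophils, 4 were lower and 1 higher. F3, the gene of tissue factor, stood at 245 and 43.8 CPM (-2.48, -2.88 to -2.10) and Tagap, a GTPase-activating protein, at 180 and 33.7 (-2.42), with Clec5a (-1.07) and Cstb (-1.01) also past 2-fold. Prnp, the prion protein gene, was the higher one, on 7 and 76 UMIs (2.61, 1.49 to 3.97). Glycolysis and hypoxia genes stayed within 2-fold except Hk2, a hexokinase (-1.58), and stress genes except Hspa1a, a heat shock protein (-1.38).

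Among all nameable genes with at least 50 UMIs, the 10 lowest in KD members were Cxcl11, Tgtp1, F3, Tagap, Gbp9, Inhba, Trim30c, Il1a, Pak1 and Bcl2a1a. Inhba, the activin A subunit, had 73 UMIs in Ctrl and 29 in KD (-2.17), and Pak1, a kinase of the cytoskeleton, had 139 and 62. The 10 highest were Adam23, Ptprb, Il1r1, Kdr, Rasal2, Nfib, Ehd3, Adgrl4, Chil3 and Stab2. Apart from Chil3 these genes had 0 to 2 UMIs in Ctrl members and 52 to 164 in KD members, in 1.66% to 4.56% of KD cells. Ptprb, Kdr and Stab2 mark endothelial cells.

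The endothelial, tumor, hepatocyte and red cell markers as a list summed to 0.379 UMIs per 10000 in Ctrl members and 3.99 in KD members, with 5 of 14 at 0 in Ctrl and none at 0 in KD. In other mature neutrophils the sums were 0.592 and 1.62. In KD members the 10 cells with most held 95.7% of the Stab2 UMIs and 92.4% of the Ptprb UMIs. T and NK cell markers summed to 1.03 and 3.42, and 1 KD member alone held 345 of the 425 Gzma UMIs. Macrophage markers summed to 7.94 in Ctrl and 9.82 in KD members, with Adgre1 at 0 by the rule and 3 of 10 measured genes at least 2-fold higher in KD, and B cell markers to 0.464 and 0.195. The part of RNA of these cells in the members' higher genes was not tested, beyond leaving cells out. Leaving out the 88 Ctrl and 102 KD members with 2 or more UMIs over 20 lineage genes of other cells gave 534 genes higher and 285 lower of 5446 measured.

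Without those cells no endothelial gene was among the 10 highest, which were Chil3, Stfa1, Atrn, Prnp, Stfa2, Asnsd1, Fkbp5, Mmp8, Kif23 and Ahnak. Chil3 then had 0 UMIs in Ctrl and 208 in KD, Mmp8 stood at 2.23 (1.79 to 2.70) and Fkbp5, a steroid-induced chaperone, at 2.34 (1.54 to 3.25). The interferon lists kept their direction, with medians of -0.70 for type I and -1.16 for interferon-gamma. Granule genes were 2-fold higher for 9 of 15. The 10 lowest still included Tagap, Tgtp1, F3, Gbp9, Il1a, Pak1, Inhba, Bcl2a1a and Cxcl11.

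Finally, the share of cells with at least 2 of the 5 genes was compared across cell gates after each cell was thinned to 1000 UMIs, which removes differences of depth. It was 56.8% of mature neutrophils in Ctrl (272 of 479) and 14.2% in KD (218 of 1536), a difference of -42.6 points (-47.4 to -37.7). Macrophages came next, at 34.7% (31.9% to 37.5%) and 10.6% (8.83% to 12.5%). Endothelial cells were at 13.3% and 2.65%, immature neutrophils at 9.68% and 3.18%, and dendritic cells at 6.78% and 2.10%, where the immature neutrophil and dendritic cell intervals of the libraries overlapped. T cells lay at 2.03% and 1.56%, B cells at 2.67% and 0.954%, and NK cells at 6 of 120 and 6 of 136 cells. At this depth the mature neutrophils held the highest share of any gate in Ctrl, with an interval above every other gate's. In KD their interval of 12.5% to 16.04% met that of macrophages. Without thinning, macrophages, which were deeper, stood above mature neutrophils, at 89.9% against 74.1% in Ctrl and 62.8% against 29.9% in KD. As the 5 genes are those of the rule, the order of the gates is a description.

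Free RNA in droplets can add to such shares, and its part was not tested. Detection in lymphocytes is given for comparison, and whether they made this RNA themselves was not tested. At 1000 UMIs, Cxcl10 was found in 27.3% of Ctrl mature neutrophils, 5.88% of Ctrl B cells and 4.73% of Ctrl T cells. In KD it was found in 3.39% of mature neutrophils (2.54% to 4.42%), 1.59% of B cells and 2.14% of T cells, and Gbp4 in 1.11%, 2.38% and 4.47%. Gbp4 detection in KD mature neutrophils was thus not above the level of lymphocytes at this depth. Gbp2 and Isg15, at 25.8% and 26.1% of KD mature neutrophils, were well above the 1.27% to 4.08% of B and T cells.

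**Figure D5:**
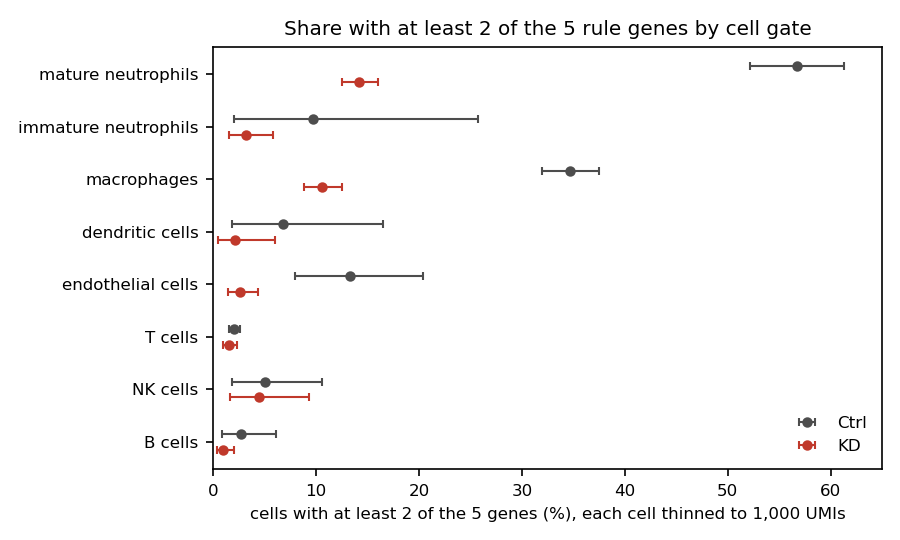
Points give the percent of cells in each gate with at least 2 of the 5 rule genes after thinning to 1000 UMIs, in Ctrl and KD, with exact 95% counting intervals. Mature neutrophils and macrophages stood highest, at 56.8% and 34.7% in Ctrl and 14.2% and 10.6% in KD, and intervals were wide for the 31 immature neutrophils and 59 dendritic cells of Ctrl.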

How the data were processed

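Single-cell 3′ libraries (10x Genomics) of CD45+ liver metastasis cells, 1 Ctrl and 1 KD, were used. The deposited matrices hold unnormalized UMI counts, output by the authors' run of Cell Ranger 7.1.0. GRCm39, Seurat 5.1.0 and R 4.4.1 are named in the submitters' processing notes, without a role. Groups followed the hairpin in the labels. Since each group is 1 library, no test was made and no p-value is given.

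Barcodes were dropped below 200 genes, above 6000 genes, above 30000 UMIs or above 10% of UMIs from mitochondrial genes. Those limits, with the genes that the rule bars, were the treatment of doublets, and no doublet caller was run. The rule, the gene lists and the gates were chosen with earlier results of these data known. UMIs were summed per library over the cells compared and scaled to a total of 1000000 (CPM). Log2 ratios have exact conditional binomial 95% intervals, sums exact Poisson and shares exact Clopper-Pearson intervals, and differences of shares combine the latter. All cover counting error only. A gene was called at 2-fold among genes with at least 20 UMIs over both libraries, or, between members and other mature neutrophils, in each library. Besides list genes, the text names the 10 highest and 10 lowest ratios of KD over Ctrl, and the 10 highest and 5 lowest of members over others, among genes with at least 50 UMIs, ranked with 0.5 CPM added. Rule, mitochondrial, ribosomal, receptor segment, sex-linked and unnamed genes were left out of that ranking. Genes named by the ranking without lineage-positive cells were chosen after their values were seen. Thinning drew 1000 UMIs per cell without replacement and left out shallower cells. Gates for other cells used their defining genes and S100a8 and S100a9 below 30 per 10000 UMIs. Macrophages needed Csf1r and Adgre1, T cells Cd3e with Cd3d or Cd3g, and B cells Cd79a with Cd79b or Ms4a1. NK cells needed Ncr1 or Klrb1c without CD3 genes, dendritic cells Flt3 and Zbtb46, and endothelial cells 2 of Stab2, Kdr, Ptprb and Clec4g. All barred Cd3e except T cells, and Cd79a except B cells. T, B and NK cells also barred Csf1r, and dendritic cells Adgre1. Other defining genes were not barred, so gates such as macrophages and endothelial cells could share cells.

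The interval method was tried only on simulated counts drawn independently, which is the model it assumes. Clustering of UMIs in single cells was left out, so coverage in these data was not tested. Promoter sequences are those of RefSeq on GRCm38.p6, and no coordinate was carried between builds. Python 3.11.15, numpy 2.4.6, scipy 1.17.1, pandas 2.3.3 and edgeR 4.0.16 (TMM factors) were used. The alternatives were a stricter filter (at least 500 genes, at most 5% mitochondrial), S100a8 and S100a9 at 100 per 10000, other numbers or sets of interferon genes, thinning before the rule, removal of cells with lineage genes of other cells, other scalings and other UMI limits. Some items are not reported here.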

Additional observations from a re-analysis of the deposited data

Results flagged for a closer look

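A few list genes differed between KD and Ctrl in opposite directions in members and in another cell gate, with both counting intervals clear of 0 and at least 1 of the ratios past 2-fold. Those differences were not tested, since each group had 1 library. Over all list genes, 9 of 235 compared with immature neutrophils and 28 of 256 compared with macrophages had opposite intervals, against 1 of 248 compared with other mature neutrophils (Cd44, 0.10 and -0.18).

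Against macrophages, Ccl4 had a log2 ratio of KD over Ctrl of -1.48 in members and 0.24 (0.20 to 0.29) in macrophages, and Ccl3 had -1.29 and 0.10 (0.02 to 0.18). Il1a stood at -2.03 in members and 0.27 (0.14 to 0.39) in macrophages, and Clec7a at -1.25 and 0.20 (0.14 to 0.26). Against immature neutrophils, Mmp8 had 2.19 in members and -0.43 (-0.60 to -0.26), Wfdc21 had 1.36 and -0.38 (-0.48 to -0.28), and Tnf had -0.94 and 1.70 (0.45 to 3.34). The immature gate was itself set on granule genes and held 33 Ctrl cells.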

How the results depend on the processing

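With 1 library per group, no setting measures the spread between mice, and no paired analysis was possible because each group had 1 library. Of 90 alternative values for the 9 main results, 65 stayed within 1.5 times a count, within the counting interval of a share, or, for a list's median, within the median half-width of its genes' intervals (0.32 for type I and 0.46 for interferon-gamma). The difference in the share of mature neutrophils was -25.8 points with at least 1 of the 5 genes and -30.1 with at least 2 of another set of interferon genes. The difference in the share of all cells was 5.71 points with at least 1 gene, and was reversed to -1.24 with at least 3 and to -0.792 after thinning. The thinned difference across gates was -27.7 points with at least 3 genes.

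Genes higher in KD members numbered 235 after thinning, 534 without lineage-positive cells, 329 at 50 UMIs and 5569 at 1 UMI with 0.5 CPM added. Lower genes numbered 194 after thinning, 177 at 50 UMIs and 2560 at 1 UMI. The UMI limits change how many genes are counted. The type I median was -0.41 after thinning. Genes 2-fold higher in members than in other mature neutrophils numbered 153 with at least 3 genes, 64 after thinning, 59 at 50 UMIs and 1090 at 1 UMI. Lower genes, 0 as reported, numbered 1 under the stricter filter, 10 with at least 3 genes, 14 after thinning, 2 with TMM and 2 with medians of ratios, 1 as a mean over cells and 220 at 1 UMI. For 88 list or named genes past 2-fold between KD and Ctrl members with UMIs in both, 991 of 993 alternative values kept their direction. The exceptions were Xaf1, at 0.32 after thinning, and Cxcl9, at 0.41 in members with exactly 2 of the 5 genes, a setting added after the data were seen. The cause of these changes was not tested.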

Other observations

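Interferon RNA itself was scarce in these neutrophils. Ifng had 11 UMIs in Ctrl members and 25 in KD members, and Ifnb1 had none in mature neutrophils of either library. Ifng was found mainly in lymphocytes, at 440 CPM in Ctrl and 316 in KD T cells (log2 ratio -0.48, -0.54 to -0.42) and at 213 and 375 CPM in NK cells (0.81, 0.48 to 1.16). The ratios of T and NK cells had opposite signs, and that difference was not tested.

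Isg15 RNA differed little between the T cells of the libraries, with a log2 ratio of KD over Ctrl of 0.05 (-0.11 to 0.22), beside -2.09 in mature neutrophils as a whole, -1.14 in macrophages and -1.19 in endothelial cells. These values describe 2 libraries, and the differences between gates were not tested.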
